A study of Mus musculus with 6 samples.

Results

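Semaphorins are guidance ligands, plexins are their signalling receptors, and neuropilins are co-receptors. The genes of these 3 families were followed in bulk RNA-Seq of inguinal white adipose tissue (iWAT), the subcutaneous fat depot of the groin. They were taken by name: every row of the count table whose symbol begins with Sema and a digit or with Plxn, together with *Nrp1* and *Nrp2*. This gave 22 of the 19509 symbols in the table, which were 14 semaphorins, 6 plexins and 2 neuropilins. Of the 22, 15 had counts high enough to be tested. *Sema3c* was singled out because an earlier look at the same counts had shown it to be low in one group, so its own *p* value is given as a description and not as independent support. *Plxnb2*, *Plxnc1*, *Sema4c* and *Sema4d* are among the genes of these families not analysed here.

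The mice carried the floxed allele of *Lexis*, a lncRNA gene (*Lexis* fl/fl), and had been fed a Western diet for 12 weeks, in both groups. *Lexis*-AdKO mice (n = 3) also carried the adiponectin-cre transgene, which acts in adipocytes and leaves the allele intact in the vessels, nerves and immune cells of the depot. *Lexis*-AdWT mice (n = 3) were littermates without Cre. The strain was C57BL/6, and the age and sex of these mice are not given in the labels. By its labels, the comparison is meant to show what deletion of *Lexis* in adipocytes does to the tissue's RNA, although the counts below do not show less *Lexis* RNA in AdKO.

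The total count per library lay between 14470542 and 17882713, so 3 counts, the floor used here, correspond to 0.168 to 0.207 CPM, the count scaled to a common library total. CPM below are adjusted by edgeR's TMM factors, and this floor covers counting error only. The row *4930412L05Rik*, taken here for *Lexis*, had 8, 9 and 8 counts in AdWT and 21, 11 and 13 in AdKO, so every AdKO library had more of it, and group names below are those of the labels. The tissue label was met by *Fabp4*, the fatty acid carrier of adipocytes, at 27207 to 35049 CPM. Markers of skeletal muscle summed to between 11.8 and 152 CPM in AdWT, highest in replicate 2, and to between 2.57 and 3.30 CPM in AdKO. In bulk tissue, fewer cells of a type and less RNA per cell cannot be told apart. No row of the 9872 tested, 0%, had an adjusted *p* under 0.05 (Benjamini-Hochberg adjustment of edgeR's quasi-likelihood test), against 566 rows (5.73%) at an unadjusted *p* under 0.05 and 27 of 6891 rows (0.392%) at an adjusted *p* under 0.05 by DESeq2.

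Class 3 semaphorins are secreted. Most of them bind a neuropilin, which holds the ligand while a plexin A or plexin D1 carries the signal into the cell through small GTPases and the actin cytoskeleton. Semaphorins of classes 4 to 7 stay on the membrane and mostly bind plexins directly. The families are best known from axon guidance and from vessel growth. In fat, cells of the vessels and nerves as well as adipocytes can express them, and *Sema3c* has been described as an adipokine.

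Promoters of 3 members are shown because the results turn on them. *Sema3c* and *Plxna2* were the members with well-covered counts and an unadjusted *p* under 0.05, and *Sema3g*, shown for contrast, is the secreted semaphorin with the highest level per kilobase of the longest transcript. Each sequence is the 250 bases before the transcription start, on the coding strand, from RefSeq on GRCm38.p6. Capitals mark a GC box (GGGCGG, read on either strand). The windows are chr5:17574566-17574815 for *Sema3c*, chr1:194619579-194619828 for *Plxna2* and chr14:31217623-31217872 for *Sema3g*, all on the plus strand.
Sema3c: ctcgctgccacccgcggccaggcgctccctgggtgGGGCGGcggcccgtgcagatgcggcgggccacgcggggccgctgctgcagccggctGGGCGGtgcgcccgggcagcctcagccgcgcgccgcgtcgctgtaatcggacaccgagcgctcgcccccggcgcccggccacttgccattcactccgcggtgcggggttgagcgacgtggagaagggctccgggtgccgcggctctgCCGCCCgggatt
Plxna2: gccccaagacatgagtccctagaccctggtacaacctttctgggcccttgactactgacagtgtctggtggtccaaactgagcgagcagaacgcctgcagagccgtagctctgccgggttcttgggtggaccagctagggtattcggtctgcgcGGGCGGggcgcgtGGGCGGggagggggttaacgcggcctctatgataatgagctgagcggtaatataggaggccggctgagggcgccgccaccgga
Sema3g: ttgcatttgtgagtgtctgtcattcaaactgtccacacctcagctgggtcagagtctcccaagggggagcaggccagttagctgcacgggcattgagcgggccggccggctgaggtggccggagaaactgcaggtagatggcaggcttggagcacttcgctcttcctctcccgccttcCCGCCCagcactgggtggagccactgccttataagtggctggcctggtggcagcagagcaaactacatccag
The *Sema3c* window was the most GC-rich of these, at 78.4% with 39 CpG dinucleotides and 3 GC boxes. The *Plxna2* window held 62.8% GC, 18 CpG and 2 GC boxes. The *Sema3g* window held 60.4% GC, 8 CpG and 1 GC box. Over the 32851 promoters of the table the median GC content was 52.4%, and 32.7% held a GC box. Of the 22 members, 20 matched the table with 26 promoters, of which 20 held a GC box. The other motifs searched on both strands were CTTTGNT, the core read by TCF/LEF factors, AGGTCA, the nuclear receptor half-site, CCAAT and TATAAA. They occurred in 16.0%, 14.0%, 33.8% and 12.4% of all promoters, and in 3, 5, 3 and 0 of the members' 26. None of these 4 motifs lay in the 3 windows shown, which says only that these letters are not there.

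*Sema3c* lay on chromosome 5 from 17080099 to 17236086 on the plus strand (NCBIM37, ENSMUSG00000028780.7). Its level was 67.7, 86.3 and 73.3 CPM in AdWT and 46.0, 44.8 and 52.8 CPM in AdKO, from 669 to 1444 counts in a library. Each AdKO library lay below each AdWT library. The mean was 75.8 ± 9.55 CPM (SD, n = 3) in AdWT and 47.8 ± 4.30 CPM (SD, n = 3) in AdKO. The log2 fold change was -0.66 (SE 0.113), with an unadjusted *p* of 0.000502 and an adjusted *p* of 0.817 by Benjamini-Hochberg adjustment of edgeR's quasi-likelihood test. *Sema3c* was thus 5th of the 9872 rows by *p* and did not pass the adjusted threshold. Its rank by *p* was between 6 and 19 with single libraries left out, 19 being without AdWT replicate 3, and 17 with the replicate number as a block. DESeq2 gave a log2 fold change of -0.68 (SE 0.143) and an adjusted *p* of 0.00243, which passed, and the adjusted *p* over all alternatives tried ranged from 0.00243 to 0.998. Leaving out 1 library at a time gave a fold change between -0.74 and -0.56, the latter without AdWT replicate 2. That library had the highest *Sema3c* and also the most skeletal muscle RNA, whose part in the result was not tested beyond this. The exact permutation test of the 6 libraries (two-sided, *p* = 0.1) can give no smaller *p* with 3 against 3.

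**Figure D1:**
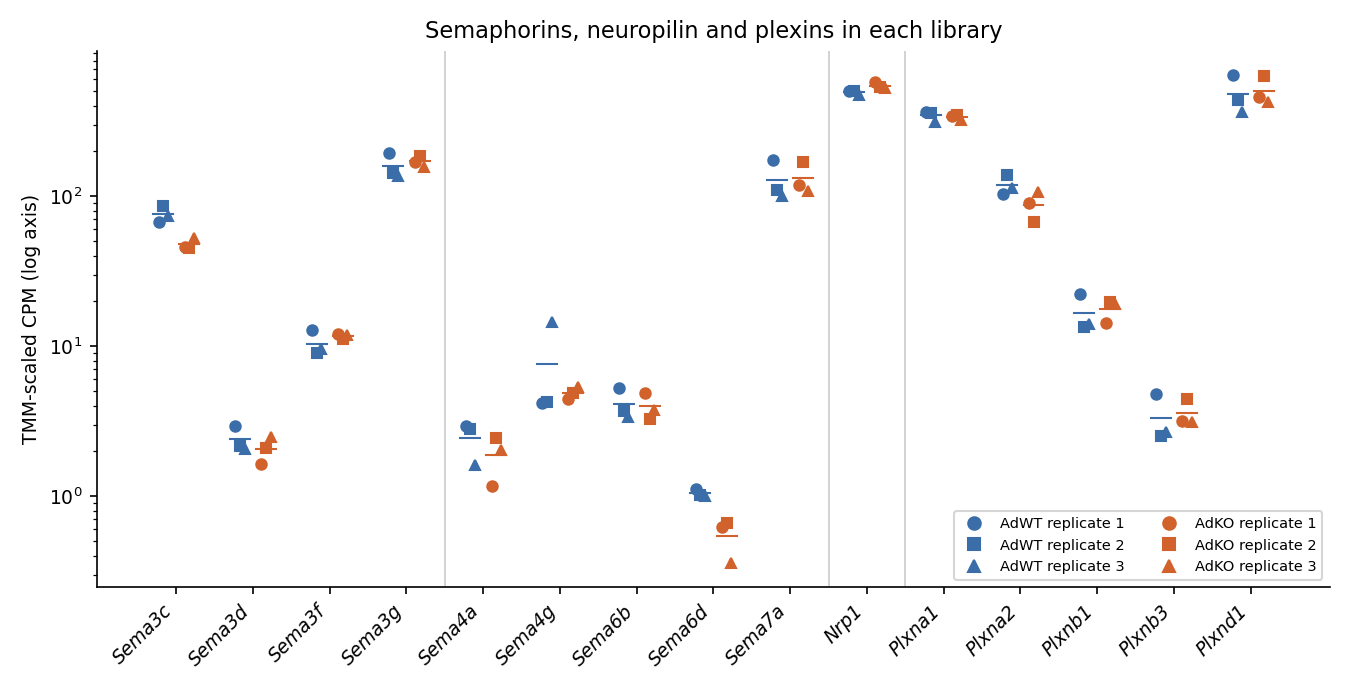
TMM-scaled CPM (log axis) of the 15 members tested in each of the 6 libraries, with AdWT in blue, AdKO in orange, a symbol for each replicate and a line at each group's mean. *Sema3c* lay between 67.7 and 86.3 CPM in AdWT and between 44.8 and 52.8 CPM in AdKO, while *Sema3g*, *Sema7a*, *Plxna1* and *Plxnd1* overlapped between groups.

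Of the other secreted semaphorins tested, none had an unadjusted *p* under 0.05 with all 6 libraries. *Sema3g*, a ligand made largely by endothelium, stood at 195, 143 and 135 CPM in AdWT and 169, 185 and 157 CPM in AdKO. The groups overlapped, and the log2 fold change was 0.11 (SE 0.144, unadjusted *p* = 0.468, edgeR's quasi-likelihood test). *Sema3f*, which signals through neuropilin 2, was at 12.8, 8.97 and 9.50 CPM in AdWT and 12.1, 11.2 and 11.8 CPM in AdKO. Its log2 fold change was 0.17 (SE 0.165, unadjusted *p* = 0.335), again with overlapping groups. *Sema3d* was low, at 2.94, 2.15 and 2.07 CPM in AdWT and 1.65, 2.11 and 2.46 CPM in AdKO, with a log2 fold change of -0.20 (SE 0.245, unadjusted *p* = 0.441) that lay between -0.34 without AdKO replicate 3 and -0.02 without AdWT replicate 1. Both *Sema3g* and *Sema3f* were highest in AdWT replicate 1. Without that library the log2 fold change was 0.29 (unadjusted *p* = 0.0163) for *Sema3g* and 0.34 (unadjusted *p* = 0.0458) for *Sema3f* by edgeR's quasi-likelihood test, a fit in which 7.20% of all rows were higher in AdKO at an unadjusted *p* under 0.05. It was 0.0029 for *Sema3g* without AdWT replicate 3 and 0.07 for *Sema3f* without AdWT replicate 2. Of the 6 class 3 members, 4 were tested, and the log2 fold changes were above 0 in 2 and below 0 in 2. *Sema3a*, the prototype growth cone repellent, had between 1 and 6 counts in each library, and *Sema3e*, which can bind plexin D1 without a neuropilin, had 0 counts in all 6.

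Counts near 0 cannot be read as absence of the RNA in this table. Many symbols are spread over several rows, which holds for 15 of the 22 members. How reads shared by such rows were counted is not given in the sources used here. *Kdr*, a VEGF receptor of every blood vessel, was listed at 0 to 0.131 CPM in its only row, while *Cdh5*, the VE-cadherin of the same cells, lay between 771 and 1156 CPM. *Emr1*, the macrophage gene for F4/80, was at 0 beside *Mrc1* at 218 to 496 CPM. The members that were not tested are therefore given by their counts and not called silent. Beside *Sema3a* and *Sema3e* these were *Sema5b*, with 0 counts in all 6 libraries, *Sema5a* with 1 to 3, *Sema4b* with 2 to 8, *Plxna3* with 0 to 2 and *Nrp2*, the preferred co-receptor of *Sema3f*, with 0 to 1. These counts are of 1 row each. Other rows of *Sema4b* held 39 counts in total against 25 in the row used, and those of *Sema5a* 12 against 10. With the rows of a symbol summed, 16 members were tested.

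Among the membrane semaphorins, *Sema7a*, a GPI-anchored ligand of integrins and plexin C1, had the highest level, per transcript length too. It stood at 173, 110 and 99.5 CPM in AdWT and 118, 170 and 108 CPM in AdKO, with a log2 fold change of 0.05 (SE 0.244, unadjusted *p* = 0.845). The spread within each group, 39.9 CPM in AdWT and 33.2 CPM in AdKO (SD, n = 3), was larger than the difference between the means of 127 and 132 CPM. *Sema4g* was at 4.19, 4.24 and 14.4 CPM in AdWT and 4.47, 4.87 and 5.35 CPM in AdKO. Its log2 fold change of -0.63 (SE 0.481, unadjusted *p* = 0.229) rested on AdWT replicate 3 and was 0.21 without that library. *Sema4a*, a semaphorin of immune cells, had a log2 fold change of -0.38 (SE 0.343), which lay between -0.61 without AdWT replicate 3 and -0.13 without AdKO replicate 1, and *Sema6b* one of -0.05 (SE 0.247), both with overlapping groups.

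*Sema6d*, a ligand of plexin A1, was the lowest of the members tested. It had 17, 17 and 15 counts in AdWT and 9, 10 and 6 counts in AdKO, which were 1.11, 1.02 and 1.0 CPM against 0.619, 0.659 and 0.361 CPM. The groups did not overlap, and the log2 fold change was -0.94 (SE 0.329, unadjusted *p* = 0.0233, adjusted *p* = 0.851 by Benjamini-Hochberg adjustment of edgeR's quasi-likelihood test). It passed the low-count filter in all 3 AdWT libraries and in only 1 of 3 AdKO libraries. It thus entered the test through the group in which it was higher, a selection that favours a difference. With single libraries left out its unadjusted *p* was under 0.05 in 3 of 6 cases, and by DESeq2 it was 0.106. In GENCODE vM1 its span overlaps 2 genes on the other strand, as those of *Plxna1* and *Plxnb1* each overlap 1, and the strand setting of the counting is not given in the sources used here.

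Only 1 neuropilin could be tested, and its values were higher in AdKO. *Nrp1*, the co-receptor of class 3 semaphorins and of VEGF-A, had 503, 504 and 472 CPM in AdWT and 575, 535 and 527 CPM in AdKO. All 3 AdKO libraries lay above all 3 AdWT libraries, and the means were 493 ± 18.3 and 546 ± 25.7 CPM (SD, n = 3). The log2 fold change was small, 0.15 (SE 0.0710), with an unadjusted *p* of 0.0765 and an adjusted *p* of 0.851 (Benjamini-Hochberg adjustment of edgeR's quasi-likelihood test), and the exact permutation test gave its smallest possible *p* of 0.1. With scaling by library size alone the log2 fold change was 0.19 and the unadjusted *p* 0.0439, under a shift of the median row to 0.05 from 0.0071.

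Of the 5 plexins tested, 4 had log2 fold changes between -0.04 and 0.10 and groups that overlapped. *Plxnd1*, the plexin of endothelial cells, was at 641, 435 and 364 CPM in AdWT and 455, 632 and 426 CPM in AdKO, with a log2 fold change of 0.07 (SE 0.231, unadjusted *p* = 0.765). Its log2 fold change lay between -0.13 and 0.34 with single libraries left out, so either sign occurred. *Plxna1*, a partner of neuropilins, was the steadiest at 365, 360 and 313 CPM in AdWT and 340, 350 and 320 CPM in AdKO, with a log2 fold change of -0.04 (SE 0.0822, unadjusted *p* = 0.641) that became 0.0045 with library size scaling. *Plxnb1*, the receptor of *Sema4d*, and *Plxnb3*, the receptor of *Sema5a*, had log2 fold changes of 0.09 (SE 0.229) and 0.10 (SE 0.299), with overlapping groups.

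*Plxna2*, another partner of neuropilins, had the lowest log2 fold change of the plexins. Its level was 103, 138 and 113 CPM in AdWT and 90.1, 67.1 and 106 CPM in AdKO, from 1018 to 2313 counts in a library. The highest AdKO library, replicate 3, lay above the lowest AdWT library, replicate 1. The log2 fold change was -0.43 (SE 0.178), with an unadjusted *p* of 0.0456 and an adjusted *p* of 0.851 by Benjamini-Hochberg adjustment of edgeR's quasi-likelihood test, and the exact permutation *p* was 0.2. With single libraries left out the fold change lay between -0.59, without AdKO replicate 3, and -0.27, without AdKO replicate 2, and the unadjusted *p* was under 0.05 in 2 of 6 cases. *Plxna2* was also highest in AdWT replicate 2, the library with the most skeletal muscle RNA, and without it the log2 fold change was -0.30 (unadjusted *p* = 0.156). The unadjusted *p* was 0.068 with scaling by library size alone and 0.0711 with the replicate number as a block, so the *Plxna2* call did not hold in either. It held in the other scalings and filters tried and by DESeq2 (unadjusted *p* = 0.0179).

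Of the 15 members tested, 7 had a log2 fold change above 0 and 8 below 0, with a median of -0.04 beside 0.0071 over all rows tested. This median has no stable sign, being 0.16 without AdWT replicate 1 and -0.13 without AdKO replicate 2. By DESeq2 the median was 0.03, but over 20 members tested in place of 15, so the 2 are not alike. The 3 members with an unadjusted *p* under 0.05, *Sema3c*, *Sema6d* and *Plxna2*, were all lower in AdKO. Of all rows tested, 2.98% reached that threshold in the lower direction and 2.76% in the higher direction. Without AdWT replicate 1 there were 4 such members, 2 lower (*Sema3c* and *Plxna2*) and 2 higher (*Sema3g* and *Sema3f*), while the share over all rows rose to 4.64% lower and 7.20% higher. None of the 15 reached an adjusted *p* of 0.05 by edgeR, and 1 did by DESeq2. The groups did not overlap in 2 members that were lower and 1 that was higher, beside 5.72% and 6.16% of all rows. *Sema6d* enters these counts only through the filter described above, and without it 2 members had an unadjusted *p* under 0.05.

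**Figure D2:**
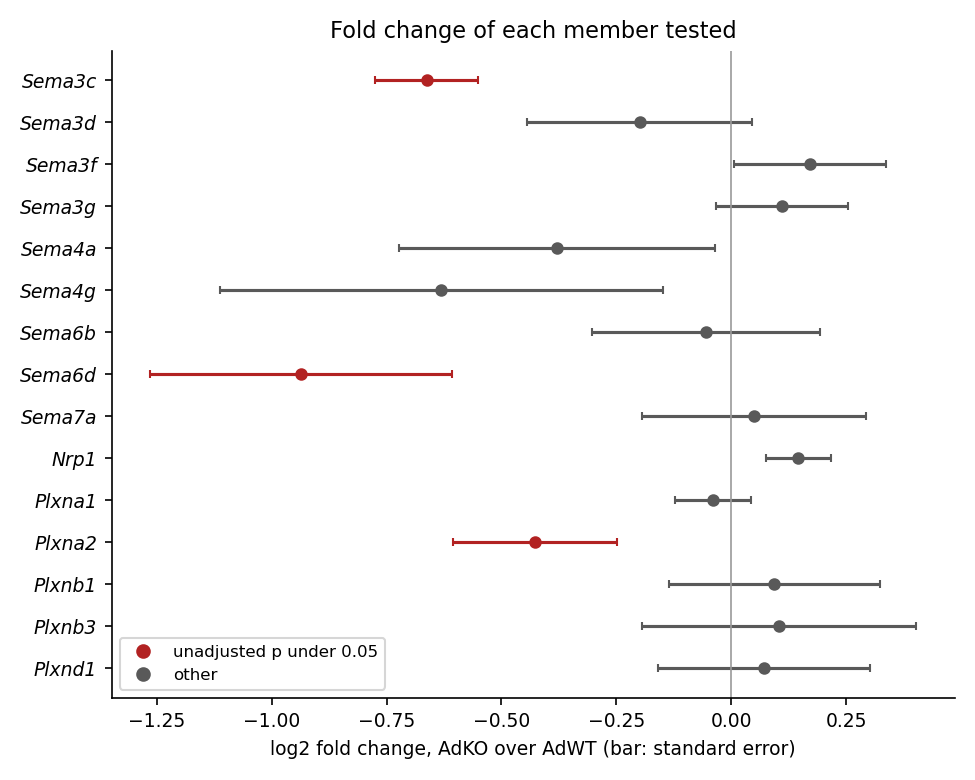
Log2 fold change of each of the 15 members tested, AdKO over AdWT, with a bar of 1 standard error on each side, in red where the unadjusted *p* was under 0.05. *Sema3c* (-0.66), *Sema6d* (-0.94) and *Plxna2* (-0.43) are in red, and no member had an adjusted *p* under 0.05 by edgeR.

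To set the members against each other, CPM were divided by the length of the longest transcript in kilobases. On this scale *Nrp1* was highest, at 83.5 ± 3.09 in AdWT and 92.4 ± 4.35 in AdKO (SD, n = 3), followed by *Plxnd1* at 69.5 ± 20.8 and 73.0 ± 16.2. The ranges of *Nrp1* and *Plxnd1* overlapped. Next came *Sema7a* (38.6 in AdWT), *Plxna1* (38.3) and *Sema3g* (34.8), whose ranges also overlapped from one to the next. *Sema3c* was 6th, at 13.8 ± 1.74 CPM per kb in AdWT and 8.71 ± 0.782 in AdKO, overlapping *Plxna2* at 10.7 ± 1.65 and 7.95 ± 1.78. *Sema3f* followed at 2.99 CPM per kb in AdWT. Some of these members have a single row (*Plxnd1*, *Sema7a*, *Plxna1* and *Sema3g*) and others several (*Nrp1* 4, *Sema3c* 2, *Plxna2* 2 and *Sema3f* 3). Either kind may be undercounted, as the single row of *Kdr* shows, so the order is that of these counts and is uncertain as an order of RNA levels. The remaining members ranged from *Plxnb1* at 1.93 CPM per kb down to *Sema6d* at 0.162 in AdWT. The order depends on the transcript length used. With the median length in place of the longest, *Plxnd1* was 1st at 294 CPM per kb over the 6 libraries, *Nrp1* was 2nd at 87.9 and *Sema3c* was 4th at 39.9, above *Sema3g*, 6th at 36.2. These places rest on means over both groups. They were not taken for each group, although *Sema3c* was lower in AdKO.

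**Figure D3:**
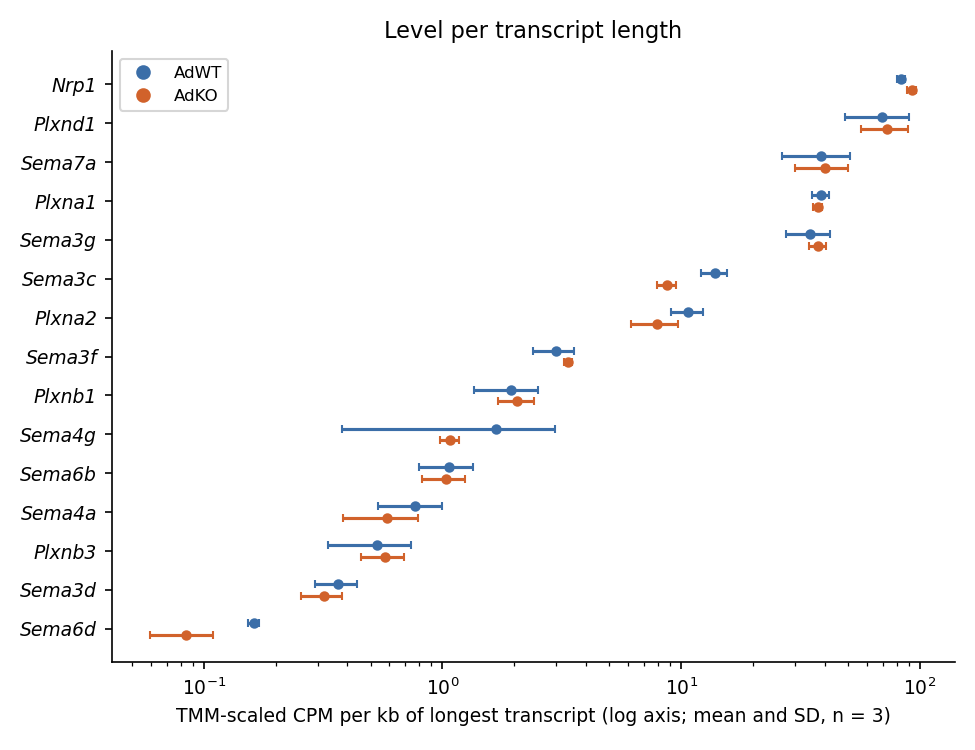
Mean TMM-scaled CPM per kb of the longest transcript (log axis) for the 15 members tested, in order of level, with AdWT in blue, AdKO in orange and bars of 1 SD (n = 3). With this length *Nrp1* was highest at 83.5 in AdWT, *Sema3c* was 6th at 13.8 in AdWT and 8.71 in AdKO, and *Sema6d* was lowest at 0.162 in AdWT.

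The ratio of *Sema3c* to another gene within a library needs no scaling factor. Since *Sema3c* was singled out for its low level in AdKO, these ratios restate that level on another scale. The log2 ratio of *Sema3c* to its co-receptor *Nrp1* was -2.71 ± 0.174 in AdWT and -3.51 ± 0.172 in AdKO (SD, n = 3), a difference of -0.81 without overlap. Against *Plxna1* the mean went from -2.20 ± 0.205 to -2.82 ± 0.192, also without overlap. Against *Sema3g* it went from -1.05 ± 0.423 to -1.83 ± 0.239, a difference of -0.79. In these pairs, and against *Sema3f* (-0.85), each AdKO library lay below each AdWT library. Set against each of the other 14 members tested, the mean ratio was lower in AdKO for 13, the exception being *Sema6d*, and the groups were apart for these 4. Every one of these ratios shares the same *Sema3c* counts, so they are not separate observations. Against *Plxna2* the difference was only -0.22, with overlap, since both genes were lower in AdKO.

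The ratio was also taken to genes of adipocytes, for the 6 adipocyte markers with a row, of which 2, *Lep* and *Fabp4*, were lower in each AdKO library than in each AdWT library. *Lep*, the leptin gene, was at 8918, 10073 and 11880 CPM in AdWT and 6829, 6756 and 8806 CPM in AdKO. *Fabp4* was at 31871, 33710 and 35049 CPM in AdWT and 28855, 29955 and 27207 CPM in AdKO. *Adipoq*, the adiponectin gene, overlapped between groups, at 5288, 6395 and 7582 CPM in AdWT and 6236, 4677 and 5254 CPM in AdKO. The means of *Lpl*, the lipoprotein lipase, and *Plin1*, a lipid droplet coat protein, went the other way, from 11091 to 11287 CPM and from 34.0 to 36.4 CPM, with overlap. *Pparg*, the master factor of adipocytes, overlapped at means of 18.8 and 17.5 CPM. The 6 markers, of which *Fabp4* makes up most, summed to between 57057 and 63855 CPM in AdWT and between 51989 and 53799 CPM in AdKO. The log2 ratio of *Sema3c* was lower in AdKO without overlap to *Fabp4* (by -0.43), *Lpl* (by -0.70) and *Plin1* (by -0.76). It differed by -0.54 to *Pparg*, by -0.41 to *Adipoq* and by -0.20 to *Lep*, each with overlap. *Plin1* has 5 rows, and *Lpl* and *Pparg* have 2 each. *Plin1* and *Pparg* also lay far below *Fabp4*. Such symbols may be undercounted here, so the ratios to them are uncertain. These ratios were chosen after the values were seen, and what part the level of adipocyte RNA has in the *Sema3c* value was not tested beyond them.

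**Figure D4:**
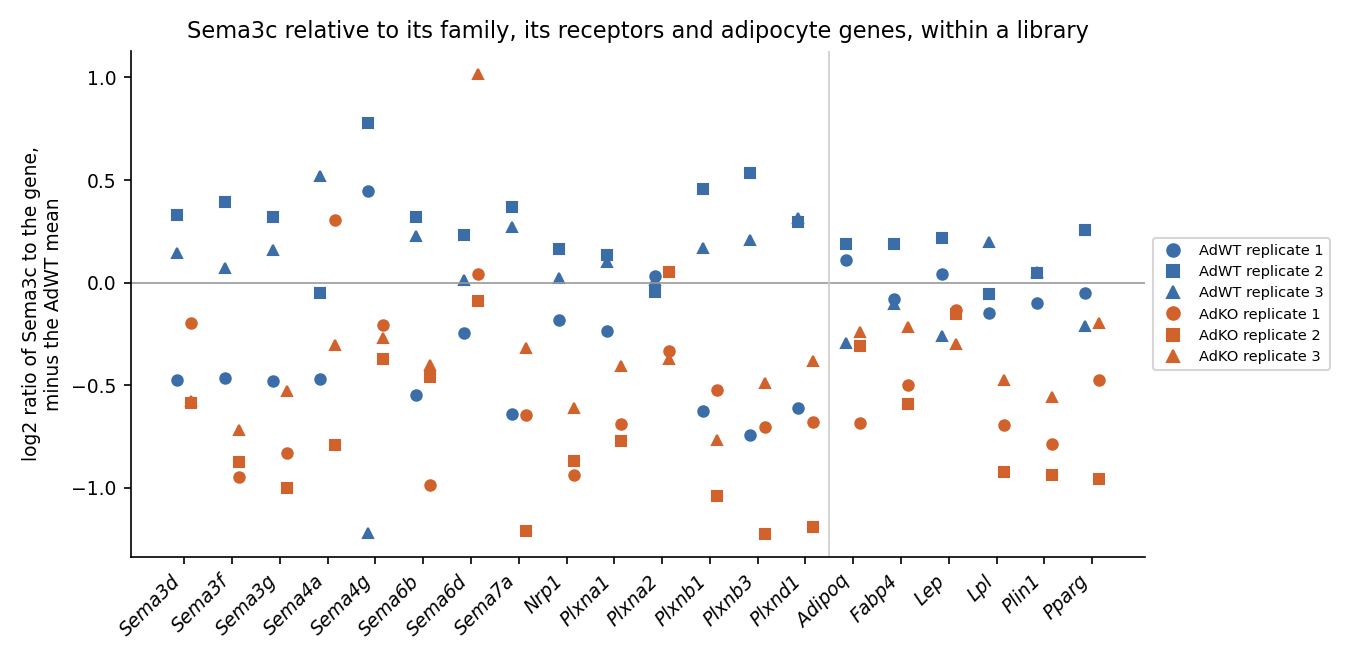
Log2 ratio of *Sema3c* to each other member tested and to the 6 adipocyte markers with a row in each library, minus the AdWT mean of that ratio, with AdWT in blue, AdKO in orange and a symbol for each replicate. The AdKO libraries lay below all AdWT libraries for *Sema3f*, *Sema3g*, *Nrp1*, *Plxna1*, *Fabp4*, *Lpl* and *Plin1*, and the mean difference to *Plxna2* was only -0.22.

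Several members varied together between libraries of the same group, a pattern noticed after the values were seen. *Plxnd1*, *Sema7a* and *Sema3g* were each highest in AdWT replicate 1 and in AdKO replicate 2. So was *Cdh5*, a defining gene of blood vessel endothelium, at 1156, 873 and 789 CPM in AdWT and 945, 1094 and 771 CPM in AdKO, and so was *Flt1*, a VEGF receptor. This pair was not particular to endothelial genes. *Mrc1* of macrophages (394 and 496 CPM) and *Cd3e* of T cells (7.39 and 7.71 CPM) were highest there too, while *Pi16* of progenitors and *Mbp* of Schwann cells were not. In all, 8 of the 15 members tested (53.3%) had this pair of highest libraries, against 1702 of the 9872 rows tested (17.2%). Divided by *Cdh5* within each library, 7 of these 8 had a smaller within-group SD on the log2 scale, for example 0.135 in place of 0.366 for *Plxnd1*, the exception being *Plxna1* (0.198 in place of 0.0977). A smaller SD follows in part from choosing genes that peak in the libraries where *Cdh5* does. Of the other 7 members tested, 1 had a smaller SD, *Sema6b*, and 6 did not, among them *Nrp1* (0.248 in place of 0.0610) and *Sema3f* (0.223 in place of 0.197). Relative to *Cdh5*, the groups still overlapped for *Plxnd1*, *Sema7a* and *Sema3g*, with differences of 0.09, 0.06 and 0.13. The 4 endothelial markers with a row summed to 792 to 1160 CPM in AdWT and 774 to 1098 CPM in AdKO, but nearly all of this was *Cdh5* itself. *Sema3c* did not follow these libraries, being lowest in AdWT replicate 1 and in AdKO replicate 2, as were the adipocyte genes *Adipoq* and *Lep*.

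**Figure D5:**
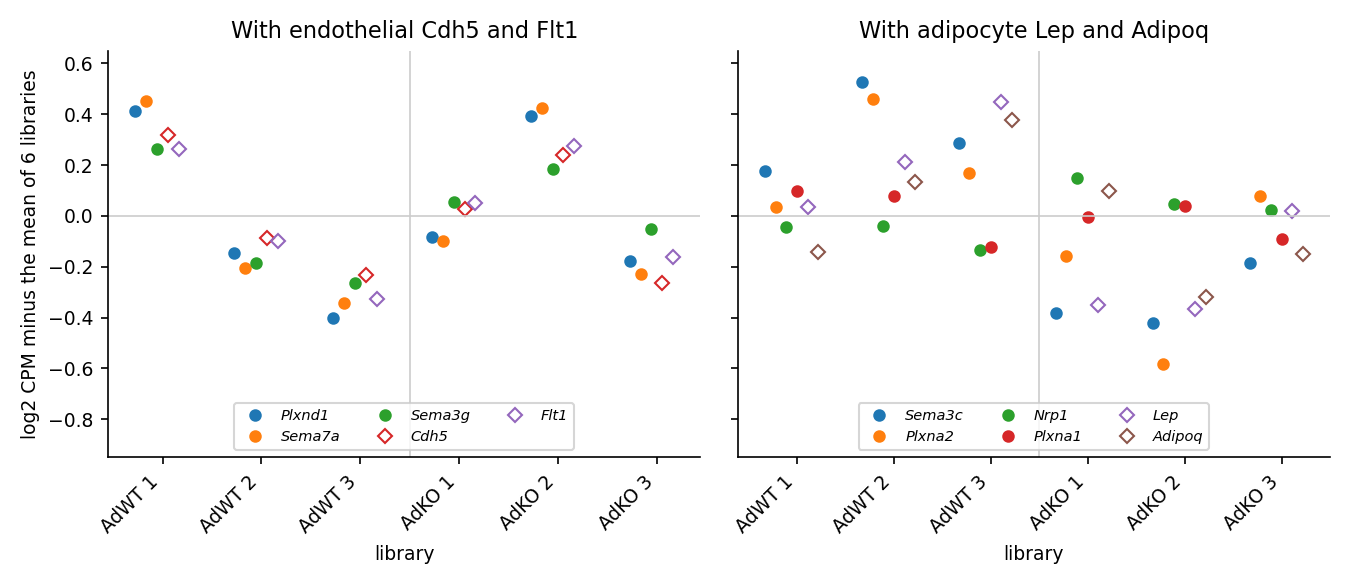
Log2 CPM in each library minus the mean of the 6 libraries, for members (filled circles) beside the endothelial genes *Cdh5* and *Flt1* (left, open diamonds) and the adipocyte genes *Lep* and *Adipoq* (right, open diamonds). *Plxnd1*, *Sema7a* and *Sema3g* were highest in AdWT replicate 1 and AdKO replicate 2 together with *Cdh5* (1156 and 1094 CPM), while *Sema3c* was lowest in those libraries of each group.

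Beyond the ligands and receptors, 71 further genes of the pathway were listed, of which 57 had a row and 38 were tested. Of the 38, 21 had a log2 fold change above 0 and 17 below 0, none had an adjusted *p* under 0.05 by edgeR, and 1 had an unadjusted *p* under 0.05, lower in AdKO, where 2.98% of all rows tested did so in that direction. This count is no higher than the background. The gene was *Mical2*, an enzyme that oxidises actin and belongs to a family of plexin effectors, at 140, 133 and 160 CPM in AdWT and 101, 115 and 132 CPM in AdKO. Its groups did not overlap, and its log2 fold change was -0.31 (SE 0.116, unadjusted *p* = 0.0287, edgeR's quasi-likelihood test). With scaling by library size alone, or without AdKO replicate 1, no listed gene had an unadjusted *p* under 0.05, *Mical2* included. Of 23 intracellular effectors tested, 11 were above 0 and 12 below 0, with a median of -0.02, and the one with the highest CPM, the actin-severing *Cfl1*, had a log2 fold change of 0.11. Of 11 co-receptors and other receptors tested, 8 were above 0 and 3 below 0. *Flt1*, with the highest CPM of them, was at 219, 171 and 146 CPM in AdWT and 190, 221 and 164 CPM in AdKO, with a log2 fold change of 0.10. The other ligands of neuropilins tested, *Vegfb* and *Vegfc*, had log2 fold changes of -0.09 and -0.18. The proteases tested, *Adam10*, which sheds membrane semaphorins, and *Pcsk5*, a proprotein convertase, had 0.06 and 0.08.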

How the data were processed

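RNA-Seq libraries from iWAT were made with the KAPA Stranded RNA-Seq Kit, sequenced on an Illumina HiSeq and aligned by the authors to mm9 with HISAT2, and the authors deposited raw counts per row without normalization. The counting tool, its annotation and its strand setting are not given in the sources used here. The row with the highest total stood for a symbol. All rows were compared with edgeR 4.0.16 (filterByExpr by group, TMM, quasi-likelihood test) in R 4.3.3, with Benjamini-Hochberg adjustment and a threshold of 0.05, and edgeR was tested on simulated data with 200 changed genes. The filter corresponded to 0.655 CPM in the median library, and the common biological coefficient of variation was 0.196. For exact permutation tests, 0.5 was added to CPM before taking log2. Members, lists and tests were chosen with earlier results of these data known. Every member was named, and of the pathway lists the genes with an unadjusted *p* under 0.05 the gene with the highest CPM of each list and, after values were seen, both genes of the lists with 2 tested. Positions are from GENCODE vM1. Alternatives included DESeq2 1.42.0, other scalings and filters, the replicate number as a block and each library left out. Replicates are separate libraries, and nothing in the labels ties them to further information on the mice, so *p* values measure the spread between these libraries. Protein sequences were not used here.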

Additional observations from a re-analysis of the deposited data

How the results depend on the processing

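The count of members with an adjusted *p* under 0.05 was 0 by edgeR and 1 by DESeq2, *Sema3c*, at a log2 fold change of -0.68 with an adjusted *p* of 0.00243. The count with an unadjusted *p* under 0.05 was 3 of 15 (5.73% of all rows) and 2 of 20 tested by DESeq2 (2.42% of all rows). With each library left out it was 1 to 4. It was 1 without AdWT replicate 2 (3.20% of all rows) and 4 without AdWT replicate 1 (11.8% of all rows), of which 2 were higher in AdKO. The count of listed pathway genes was 1 of 38. It was 2 of 51 tested by DESeq2 (2.42% of all rows). With rows of at least 1 count in any library it was also 2 of 51 (4.32% of all rows). With scaling by library size alone it was 0 (4.81% of all rows). Leaving out a library gave 0 to 5. It was 0 without AdKO replicate 1 (4.49% of all rows). Without AdWT replicate 1 it was 5 of 40 tested, where 11.8% of all rows were called. Scaling by library size alone gave 313 rows higher and 162 lower at an unadjusted *p* under 0.05, against 272 and 294, and *Plxna1* then had 0.0045. With a library left out the log2 fold change changed sign for *Plxna1* (-0.12 to 0.00093), *Sema6b* (-0.23 to 0.17), *Plxnb1* (-0.042 to 0.37), *Plxnb3* (-0.084 to 0.46), *Sema7a* (-0.18 to 0.34), *Plxnd1* (-0.13 to 0.34) and *Sema4g* (-0.93 to 0.21). By the mean over the 6 libraries, with the median transcript length *Sema3c* was 4th in level per kb in place of 6th, and *Plxnd1* 1st in place of *Nrp1*. Apart from the leave-one-out shifts, the cause of these differences was not tested. With 3 libraries per group, the values do not settle whether the same replicate number ties libraries together. Deviations of same-numbered libraries correlated at -0.102, -0.116 and 0.352, and only replicate 3 correlated best with its own number. With the replicate number as a block, 418 rows (4.23%) and 2 members had an unadjusted *p* under 0.05. *Sema3c* then had an adjusted *p* of 0.941 (Benjamini-Hochberg adjustment of edgeR's quasi-likelihood test). With rows of at least 1 count in any library, 20 members were tested in place of 15. Of these, 3 had an unadjusted *p* under 0.05, beside 4.32% of all rows.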
